A study of Mus musculus with 18 samples.

Results

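The chemokine gene Cxcl12 and the gene of its receptor, Cxcr4, were followed through single cells of gastrulating mouse embryos. They are 2 of 22997 nuclear genes in the count tables and were taken by name, with earlier results of these data known. Both were read in 972 cells that held at least 2000 nuclear transcripts, of 1728 barcodes in use. At least 1 Cxcl12 transcript was found in 483 of these cells and at least 1 Cxcr4 transcript in 76.

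All embryos were C57BL/6 wild type, and the labels name no engineered allele and no agent. The E6.75 group held 6 libraries of cells picked by hand and made with CEL-Seq2, from embryos dissociated one by one after the extraembryonic part had been cut away. The E7.5 group held 12 libraries of flow-sorted cells made with mCEL-Seq2, from pooled embryos of 1 or 2 litters cut beneath the chorion, so that extraembryonic mesoderm stayed in. Stage, collection and protocol changed together and cannot be told apart. The labels do not say which embryo a cell came from, so p-values rest on libraries. Between stages they measure against the spread of libraries, and between cell groups against the spread of the difference within libraries. Either spread may be partly technical. The title of the series gives the segregation of mesoderm and endoderm during gastrulation as its subject.

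CXCL12 is a secreted chemokine that directs cell migration. CXCR4 is a G protein-coupled receptor that signals through Gi proteins, and ACKR3 is a second receptor that takes the ligand up and clears it. The pair is best known for guiding germ cells, blood progenitors and endothelial cells, and Cxcr4 is in wide use as a marker of definitive endoderm. T is a transcription factor gene of the primitive streak, Mesp1 one of nascent mesoderm, Foxa2 one of anterior streak, endoderm and node, and Sox2 one of epiblast and ectoderm.

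In the GENCODE vM21 annotation of GRCm38, Cxcl12 (ENSMUSG00000061353.11) is a protein-coding gene on chromosome 6 at 117168535 to 117181367, plus strand. Cxcr4 (ENSMUSG00000045382.6) is a protein-coding gene on chromosome 1 at 128588199 to 128592293, minus strand. The 250 bases before each RefSeq start are shown so that the letters read by T-box, forkhead and bHLH factors, the families of T, Foxa2 and Mesp1, can be looked for beside the levels below. They come from the RefSeq promoter table (GRCm38.p6), where both genes matched by symbol. Cxcl12 is at chr6:117168285-117168534 on the plus strand and Cxcr4 at chr1:128592300-128592549 on the minus strand. Capitals mark the motifs that were found, on either strand.
Cxcl12 promoter: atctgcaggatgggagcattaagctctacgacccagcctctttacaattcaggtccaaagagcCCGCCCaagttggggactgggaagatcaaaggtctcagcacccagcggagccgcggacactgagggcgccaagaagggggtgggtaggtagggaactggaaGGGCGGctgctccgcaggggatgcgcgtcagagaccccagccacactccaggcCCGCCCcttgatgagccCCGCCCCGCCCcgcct
Cxcr4 promoter: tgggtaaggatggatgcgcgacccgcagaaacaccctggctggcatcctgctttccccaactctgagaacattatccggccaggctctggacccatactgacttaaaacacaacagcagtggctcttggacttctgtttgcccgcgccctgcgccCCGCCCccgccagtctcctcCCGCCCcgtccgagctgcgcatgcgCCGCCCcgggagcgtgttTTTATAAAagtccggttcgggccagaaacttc

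The TATA box was searched on both strands as TATAAA, and the GC box as GGGCGG. The T-box was searched as GGTGTGA and the forkhead motif as TGTTTAC. The E-box, which bHLH factors bind, was searched as CANNTG. The GC box matched 5 times before Cxcl12, with one overlapping pair, and 3 times before Cxcr4. It was present in 32.7% of the 32851 promoters of the same length. The TATA box matched before Cxcr4 alone, as 2 overlapping matches on opposite strands that begin 30 and 32 bases before the start. It was found in 12.4% of all promoters. The letters of the T-box, forkhead and E-box motifs were in neither window, and were held by 3.33%, 3.17% and 66.2% of all promoters. The G and C content was 64.4% for Cxcl12 and 61.2% for Cxcr4, against a median of 52.4%.

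Depth bounded what could be read of either gene. An E6.75 library held 2933395 to 5493791 nuclear transcripts in all, and a tested E7.5 library 518343 to 2627269. The early libraries kept 85 to 96 cells each and the late ones 15 to 71, except that E7.5 replicate 5 had 0 kept cells and entered no test. The median kept cell had 22331 to 54686 transcripts in the E6.75 libraries, and in the E7.5 libraries 18982 to 57140. All 6 epiblast markers were detected at both stages. The 8 visceral endoderm markers (such as Afp and Ttr) summed to 102 to 613 CPM (counts-per-million, of nuclear transcripts) in E6.75 libraries and 1.48 to 138 in E7.5 libraries. Cells with at least 0.5% of their transcripts from that list (18 at E6.75, 0 at E7.5) were left out of every comparison of cell groups, as were cells with at least 3 of 6 extraembryonic ectoderm markers (11 and 4). A further 23 E6.75 cells lay between 0.1% and 0.5%.

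Cxcl12 was the commoner transcript by far. At E6.75, 1432 transcripts lay in 320 of 543 cells, and at E7.5, 669 lay in 163 of 429. A positive cell held a median of 3 transcripts at both stages, and at most 29 and 26. Cxcr4 gave 46 transcripts in 27 cells at E6.75 and 73 in 49 cells at E7.5, and 66.7% and 75.5% of those cells held a single one. A cell with no Cxcr4 transcript is therefore not shown to lack the receptor.

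Per library, Cxcl12 stood at 78.8 and 63.0 CPM in E6.75 replicates 1_10 and 1_11, and at 51.5, 53.8, 63.1 and 55.9 in 2_9, 2_12, 2_13 and 2_14. The E7.5 libraries ran from 4.27 (replicate 1) through a median of 54.7 to 110 (replicate 4). The 6 early libraries were alike, and the 11 late ones spread on both sides of them. The means were 61.0 ± 9.91 CPM (SD, n = 6) and 52.4 ± 31.9 (n = 11). The log2 fold change was -0.27 ± 0.37 (SE, adjusted p = 0.594, edgeR quasi-likelihood), in a comparison that called 38.8% of 9998 genes. No difference in the ligand between the stages was detectable against this spread. Without E7.5 replicates 1 and 2, a setting added after their low values were seen, the log2 fold change was 0.05.

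**Figure D1:**
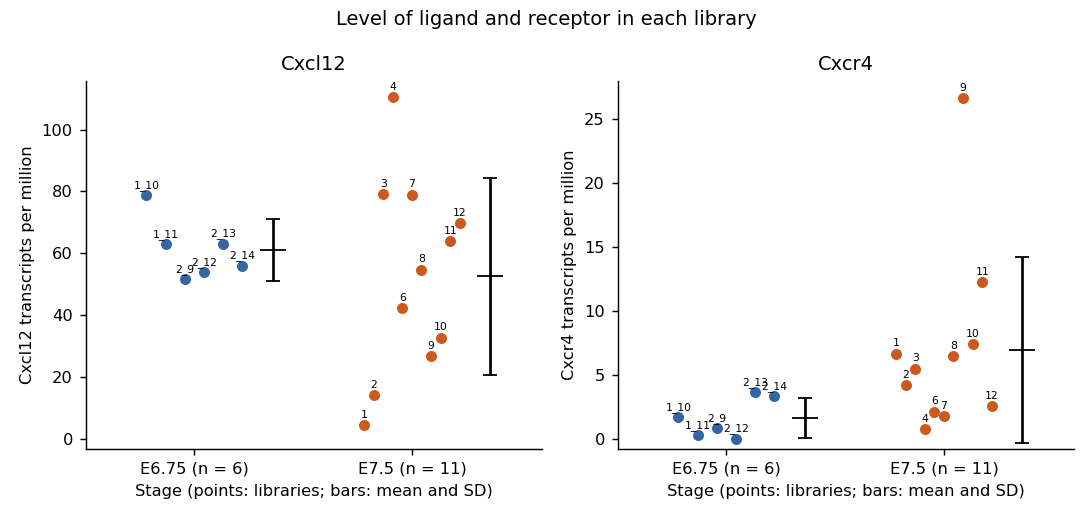
Cxcl12 and Cxcr4 levels in CPM (vertical axes) in each library of kept cells, for 6 E6.75 and 11 E7.5 libraries (horizontal axis), with group means and SDs. Cxcl12 means were 61.0 and 52.4 with a wide E7.5 spread, and Cxcr4 means were 1.62 and 6.93.

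The libraries of lowest Cxcl12 also held other mixes of cells. In E7.5 replicates 1 and 2, 84.8% and 92.9% of cells held T and 16.7% and 37.1% held Sox2, whereas in replicate 4, 67.7% held Sox2 and 10.8% held Mesp1. The part of this mix in the spread between libraries was not tested. In such sums, fewer expressing cells and less RNA per cell cannot be told apart.

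Cxcr4 stood between 0 and 3.65 CPM in the 6 E6.75 libraries, with a median of 1.24. In the 11 E7.5 libraries it ran from 0.746 (replicate 4) through a median of 5.48 to 26.6 (replicate 9). The ranges overlapped, and replicate 9 lay far above the rest with 13 transcripts in 6 of its 15 cells. The means were 1.62 ± 1.55 CPM (SD, n = 6) and 6.93 ± 7.30 (n = 11), a difference that missed 0.05 (two-sided exact permutation test, p = 0.0746). Leaving out 1 library at a time gave p from 0.0387 to 0.136, below 0.05 without E7.5 replicate 4 or 9. Cxcr4 had too few counts for the filter of the edgeR fit. With no filter the log2 fold change was 1.58 ± 0.54 (SE, edgeR adjusted p = 0.0326, 20.4% of unfiltered genes called).

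The share of cells with the transcript depended on depth, so each cell was also reduced to 2000 transcripts. On that footing Cxcl12 was detected in 9.61% ± 1.28 (SD, n = 6) of E6.75 cells and 8.72% ± 4.74 (n = 11) of E7.5 cells, a difference within the spread (exact permutation test, p = 0.664, also 0.664 adjusted over the 2 genes). Cxcr4 was detected in 0.351% ± 0.379 and 1.40% ± 1.5 (exact permutation p = 0.107, adjusted 0.214). At full depth the shares were 58.8% ± 7.64 and 40.0% ± 16.7 for Cxcl12 (exact permutation, adjusted p = 0.0438) and 4.80% ± 4.76 and 13.7% ± 10.2 for Cxcr4 (adjusted p = 0.0487).

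At E6.75 the ligand was higher in cells of the streak. Cells with at least 1 T transcript (152 of 514) held 2.16-fold more Cxcl12 than the other 362. In cells without T, Cxcl12 stood at 66.3, 43.1, 50.7, 42.6, 41.6 and 35.6 CPM in replicates 1_10, 1_11, 2_9, 2_12, 2_13 and 2_14. In cells with T the same libraries stood at 131, 166, 61.5, 104, 85.8 and 76.9 CPM. All 6 libraries were higher with T, although the lowest value with T (2_9) lay below the highest without it (1_10). The visceral endoderm markers, all 8 detected on both sides, were lower with T in 6 of 6 libraries (8.08 to 92.1 CPM with T and 35.0 to 313 without), and so were the extraembryonic ectoderm markers (43.1 to 119 and 60.3 to 120.6). Most of the latter sum was Wfdc2, at 59.5 CPM with and 85.1 without T over all cells. No other gene of that list was above 2.92 CPM on either side. With cells of at least 0.1% visceral endoderm transcripts also left out, a limit added after the data were seen, the log2 fold change by T was 1.07 ± 0.14 (SE, edgeR adjusted p = 8.9e-06), and the part of the extraembryonic ectoderm markers was not tested. The means were 46.7 ± 10.7 and 104 ± 38.8 CPM (SD, n = 6), and edgeR gave a log2 fold change of 1.11 ± 0.14 (SE) with an adjusted p of 1.15e-05. Of 9760 genes 3.5% were called, and 1.86% were called higher with T. Cells with T were also deeper, with a median over libraries of 58405 against 32030 transcripts. When T was called on cells reduced to 5000 transcripts the log2 fold change was 0.83 (adjusted p = 0.000239, edgeR).

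At E7.5 the comparison by T did not pass. Cxcl12 stood at 66.4 ± 54.3 CPM in 145 cells without T and 38.3 ± 25.7 in 280 with T (SD, n = 11), lower with T in 7 of 11 libraries. The log2 fold change was -0.79 ± 0.29 (SE, edgeR adjusted p = 0.215, 2.11% of genes called), and -0.77 with no filter on low counts (adjusted p = 0.00135, edgeR, 1.82% called). The T effect itself differed between the stages, by -1.89 ± 0.34 on the log2 scale (edgeR interaction, adjusted p = 0.00276, 0.414% of genes called). DESeq2 gave -1.86 for the same difference with an adjusted p of 0.165. Cxcr4 by T gave log2 fold changes of 0.73 at E6.75 and 0.66 at E7.5 (edgeR with no filter, adjusted p = 0.948 and 0.966).

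**Figure D2:**
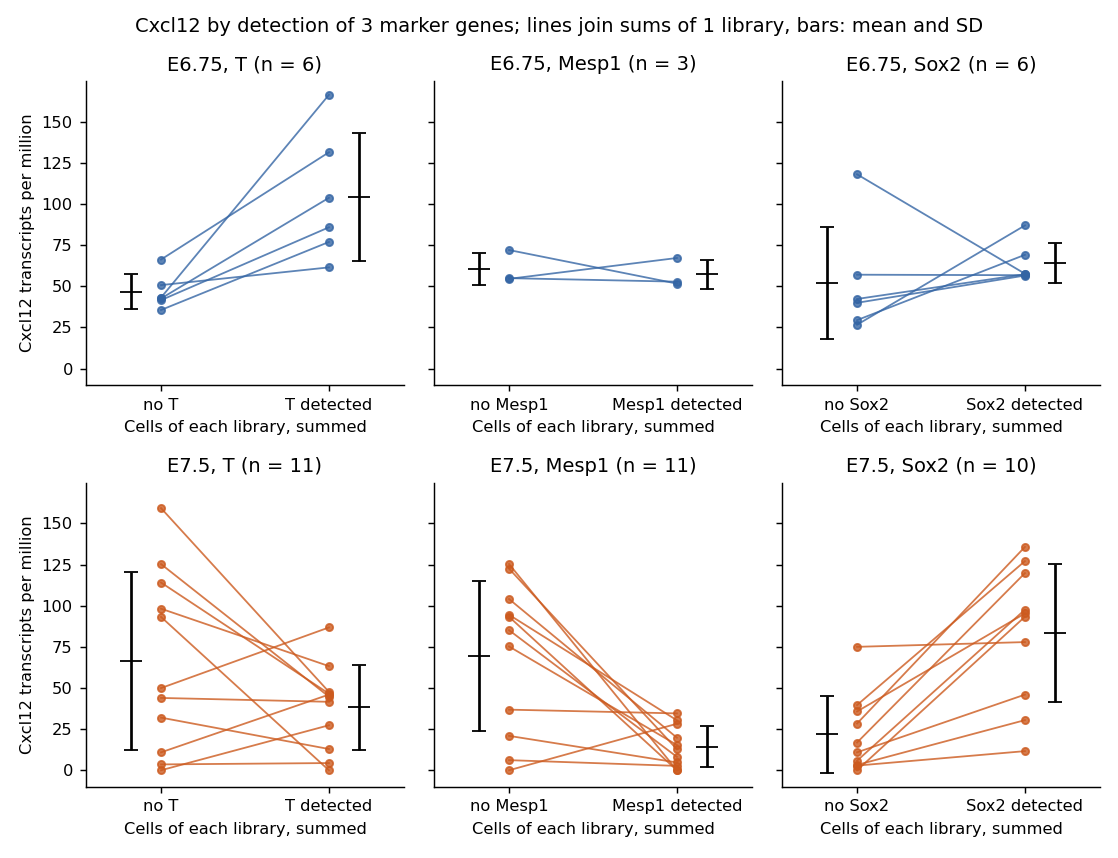
Cxcl12 level in CPM (vertical axis) in cells without and with T, Mesp1 or Sox2, at E6.75 and E7.5. Each line joins the sums of 1 library. Every E6.75 library rises with T, 10 of 11 E7.5 libraries fall with Mesp1 and 10 of 10 E7.5 libraries rise with Sox2.

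At E7.5 the ligand was lower in cells with Mesp1. In 288 cells without Mesp1, Cxcl12 ran from 0 through a median of 85.1 to 125 CPM over 11 libraries. In 137 cells with Mesp1 it ran from 0 through 12.8 to 34.6. It was lower with Mesp1 in 10 of 11 libraries, and only replicate 9 went the other way, from 0 to 28.3. The extraembryonic ectoderm markers were also lower with Mesp1, in 11 of 11 libraries (6.25 to 52.9 CPM with and 56.2 to 169 without), and their part in the difference was not tested. Most of that sum was Wfdc2, at 24.0 CPM with and 81.8 without over all cells, while Elf5, Rhox6 and Rhox9 were at 0 with Mesp1 and at most 0.368 CPM without. The means were 69.5 ± 45.7 and 14.2 ± 12.5 CPM (SD, n = 11), a 4.51-fold drop (log2 fold change -2.17, edgeR adjusted p = 8.44e-06), where 6.27% of genes were called. Median depths were 25871 without and 40090 with Mesp1, and cells with Mesp1 were deeper in 9 of 11 libraries.

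At E6.75 the comparison by Mesp1 did not pass. In the 3 libraries with enough of them, 50 cells with Mesp1 held 57.2 ± 8.67 CPM and 217 without held 60.5 ± 9.99 (SD, n = 3), which edgeR put at -0.09 ± 0.18 on the log2 scale (SE, adjusted p = 0.939, 1.23% of genes called). The Mesp1 effect differed between the stages by -2.06 ± 0.41 (edgeR interaction, adjusted p = 0.00968, 0.342% of genes called). That call was lost without E6.75 replicate 2_14 (adjusted p = 0.0808) and with DESeq2 (adjusted p = 0.122).

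The receptor had more transcripts in cells with Mesp1. At E7.5 it had 53 transcripts in 137 cells with Mesp1 and 20 in 288 without, 9.97 ± 7.62 against 5.70 ± 10.0 CPM (SD, n = 11), higher with Mesp1 in 9 of 11 libraries. Replicate 9 had the highest values on both sides, 26.1 with and 35.2 without, the latter from 1 transcript in 5 cells. Without replicate 9 the means were 8.35 ± 5.72 and 2.75 ± 2.28 CPM (SD, n = 10). Cxcr4 did not pass the filter, and with no filter its log2 fold change was 1.49 ± 0.46 (SE, edgeR adjusted p = 0.0292, 4.3% of unfiltered genes called). Unfiltered fits gave smaller p-values for Cxcl12, whose adjusted p in this comparison was 7.9e-23 with no filter and 8.44e-06 with it (edgeR). The unfiltered p-values of Cxcr4 have no filtered value beside them and may be too small. Cxcr4 was found in 32 of 137 cells with Mesp1 (23.4%, exact 95% binomial interval 16.6 to 31.3%) and in 17 of 288 without (5.90%, 3.48 to 9.28%). These intervals cover counting error only. Reduced to 5000 transcripts per cell, the shares were 4.11% and 1.44%. At E6.75 Cxcr4 stood at 5.01 CPM with Mesp1 and 1.47 without (n = 3 libraries, edgeR with no filter, log2 fold change 1.76, adjusted p = 0.541). The Cxcr4 effect of Mesp1 was not shown to differ between stages (-0.21 ± 0.75, edgeR adjusted p of 1).

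Sox2, which marks epiblast and ectoderm, gave the opposite pattern at E7.5. Cxcl12 stood at a median of 13.9 CPM (0 to 75) in 220 cells without Sox2 and of 94.3 (11.6 to 136) in 190 cells with it, and was higher with Sox2 in 10 of 10 libraries. The means were 21.8 ± 23.5 and 83.5 ± 41.9 CPM (SD, n = 10), a 4.56-fold rise (log2 fold change 2.19 ± 0.27, edgeR adjusted p = 6.46e-06, 8.68% of genes called). With Sox2 called on 5000 transcripts per cell it was 1.01 (adjusted p = 0.0223, edgeR). Cxcr4 went from 9.59 ± 7.07 to 1.68 ± 1.55 CPM and was lower with Sox2 in 9 of 10 libraries. With no filter its log2 fold change was -2.01 ± 0.56 (edgeR adjusted p = 0.0106, 4.29% of unfiltered genes called). Cxcl12 was found in 64.7% of Sox2 cells and 17% of the others, and Cxcr4 in 4.74% and 17%. At E6.75, in fits added after the E7.5 result was seen, Cxcl12 by Sox2 gave 0.18 ± 0.22 (edgeR adjusted p = 0.831, 1.78% of genes called). The Sox2 effect differed between the stages by 1.99 ± 0.41 (edgeR interaction, adjusted p = 0.00579, 2.04% of genes called). The E6.75 cells without Sox2 were shallow, with a median of 9915 transcripts against 46971, and higher in visceral endoderm markers in 6 of 6 libraries. At E7.5 the extraembryonic ectoderm markers were higher with Sox2 in 8 of 10 libraries (50.6 to 205 CPM with and 16.3 to 135 without). Most of that sum was Wfdc2, at 82.1 CPM with and 34.2 without over all cells, while Ascl2 was lower with Sox2 (3.69 and 8.83). Duox2 stood at 1.03 and 0.321, and Elf5, Rhox6 and Rhox9 were at most 0.442 CPM with Sox2 and at 0 without. The part of these markers was not tested.

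By Foxa2, the endoderm and anterior streak gene, neither member passed the test at either stage. At E6.75 Cxcl12 stood at 58.5 ± 13.3 CPM without and 71.5 ± 12.7 with Foxa2 (SD, n = 6, higher in 5 of 6 libraries, log2 fold change 0.33 ± 0.13, edgeR adjusted p = 0.34, 1.56% of genes called). At E7.5 it stood at 63.4 ± 40.8 and 46.2 ± 49.3 (n = 9, lower in 7 of 9, log2 fold change -0.53 ± 0.35, edgeR adjusted p = 0.62, 2.37% called). The effect was not shown to differ between stages (-0.92 ± 0.37, edgeR adjusted p = 0.362, 0.816% called). Cxcr4 stood at 3.79 CPM with Foxa2 and 0.939 without at E6.75 (higher in 5 of 6 libraries), with an adjusted p of 0.658 in edgeR with no filter. The visceral endoderm markers were higher with Foxa2 in 6 of 6 E6.75 libraries (100 to 624.7 CPM with and 6.91 to 89.3 without). With the limit of 0.1% Cxcl12 by Foxa2 was 0.46 ± 0.13 (SE, edgeR adjusted p = 0.158), and the markers' part in the Cxcr4 values was not tested. At E7.5 its log2 fold change was -0.15 (adjusted p = 0.933, edgeR with no filter).

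Mesp1-only cells were also set against Foxa2-only cells, which can be of anterior streak, endoderm or node. At E7.5, 98 Mesp1-only cells held 9.87 ± 11 CPM of Cxcl12 and 45 Foxa2-only cells held 53.2 ± 49.3 (SD, n = 8), lower on the Mesp1 side in 8 of 8 libraries. Cxcl12 fell under the filter there, and with no filter the log2 fold change was -2.09 ± 0.39 (SE, edgeR adjusted p = 6.91e-06, 4.01% of unfiltered genes called, and 4.97% in the filtered fit). At E6.75 the means were 44.9 ± 20.6 and 68.4 ± 22.5 CPM (n = 3, 29 and 73 cells), a difference that did not pass (log2 fold change -0.69 ± 0.33, edgeR adjusted p = 0.611, 1.47% called). With at least 2 transcripts asked of a positive cell it was -1.15 (adjusted p = 0.0257, edgeR). Cxcr4 did not differ past the test between these cells at E7.5 (log2 fold change 0.63, edgeR with no filter, adjusted p = 0.911). The visceral endoderm markers were lower in Mesp1-only cells in 3 of 3 E6.75 libraries (13.5 to 18.7 CPM against 239 to 472). At E7.5 they were lower in 4 of 8 and higher in 4 (0 to 30.0 CPM against 0 to 436). The extraembryonic ectoderm markers were lower in Mesp1-only cells in 3 of 3 and 7 of 8 libraries. Most of that sum was Wfdc2, over all cells at 49.6 against 70.4 CPM at E6.75 and 20.7 against 58.5 at E7.5. Ascl2 went the other way at E6.75 (1.23 against 0.527). The part of these markers was not tested.

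**Figure D3:**
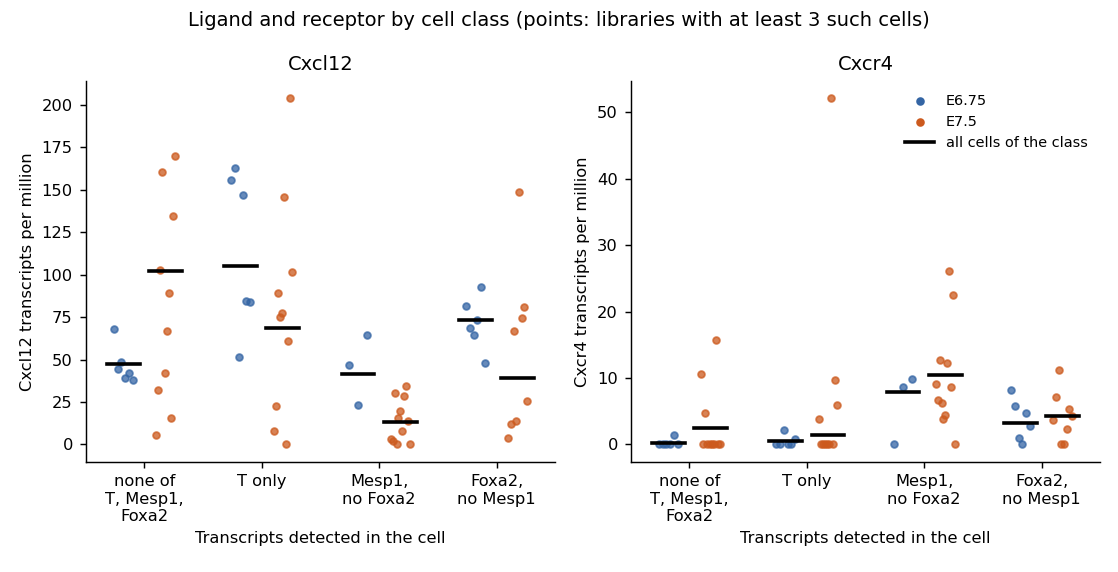
Cxcl12 and Cxcr4 levels in CPM (vertical axes) in cells with none of T, Mesp1 and Foxa2, with T alone, with Mesp1 without Foxa2 and with Foxa2 without Mesp1 (horizontal axis), at both stages. Points are libraries and black lines are all cells pooled; at E7.5 pooled Cxcl12 is 102, 68.4, 13.5 and 39.0 and pooled Cxcr4 is 2.50, 1.42, 10.4 and 4.34.

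The classes stood in another order at each stage for the ligand, a difference in order that was not tested. Cells with both Mesp1 and Foxa2 reached a level in 2 libraries at each stage (76.7 CPM at E6.75 and 9.79 at E7.5) and are left out of the order. At E6.75 Cxcl12 was 114 ± 46.7 CPM in cells with T alone (SD, n = 6), then 71.5 ± 15.2 with Foxa2 (n = 6), 46.6 ± 11.1 with none of the 3 (n = 6) and 44.9 ± 20.6 with Mesp1 (n = 3). At E7.5 it was 81.9 ± 59.3 with none (n = 10), 78.4 ± 62.8 with T alone (n = 10), 53.2 ± 49.3 with Foxa2 (n = 8) and 14.2 ± 12.7 with Mesp1 (n = 11). Neighbours in each order lay within the larger SD of the pair, except Foxa2 against none at E6.75. These SDs ignore that the classes share libraries, so they do not show that neighbours are alike. Within libraries, Mesp1-only cells were lower than Foxa2-only cells in 8 of 8 at E7.5, as given above. Cxcr4 was found in 31 of 125 Mesp1 cells (24.8%, 17.5 to 33.3%), 7 of 49 Foxa2 cells (14.3%), 5 of 123 T-alone cells (4.07%) and 5 of 116 with none (4.31%) at E7.5. At E6.75 it was found in 5 of 29 (17.2%), 10 of 97 (10.3%), 2 of 71 and 2 of 296. The 18 visceral endoderm cells of E6.75 held Cxcr4 in 4 (22.2%, 6.41 to 47.6%) and Cxcl12 in 1.

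Further lineage genes were read at E7.5. Kdr marks blood and endothelial progenitors, and Cxcr4 stood at 4.57 ± 5.12 CPM without it and 14.3 ± 15.7 with it (SD, n = 11, higher in 9 of 11 libraries). With no filter the Cxcr4 log2 fold change was 1.48 ± 0.45 (edgeR adjusted p = 0.037, 2.95% of unfiltered genes called). Cxcr4 was found in 26 of 100 Kdr cells (26%) and 23 of 325 others (7.08%). Cxcl12 did not pass by Kdr (-0.57, edgeR adjusted p = 0.232, 4.29% called), by Hand1, a lateral and extraembryonic mesoderm gene (0.30, adjusted p = 0.623, 3.04%), or by Sox17, an endoderm gene (-0.61, adjusted p = 0.802, 0.545%). By Tbx6, a paraxial mesoderm gene, it stood at 64.2 ± 42.8 and 22.4 ± 33.5 CPM (SD, n = 11), lower in 9 of 11 libraries, with an edgeR adjusted p of 0.094 (4.08% called), and of 2.03e-10 with no filter (3.16% called). The extraembryonic ectoderm markers were lower with Tbx6 in 11 of 11 libraries and with Kdr in 10 of 11. Most of that sum was Wfdc2, over all cells at 33.0 CPM with and 74.9 without Tbx6, and 25.5 with and 74.9 without Kdr. Ascl2 (9.64 with and 4.16 without) and Duox2 (0.918 and 0.547) were higher with Kdr, and Elf5, Rhox6 and Rhox9 were at 0 with it. The visceral endoderm markers were lower with Kdr in 9 of 11 libraries, but ran wider there (0 to 922 CPM with and 0 to 26.02 without). Over all cells Apoa1 stood at 8.95 CPM with Kdr and 1.203 without, and Ttr at 5.28 and 1.53. Apoa4, Apob and Amn were also higher with Kdr, and Afp, Cubn and Rbp4 lower. The part of these markers was not tested. Cxcr4 by Tbx6, Hand1 or Sox17 had adjusted p from 0.936 to 0.947 (edgeR with no filter).

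**Figure D4:**
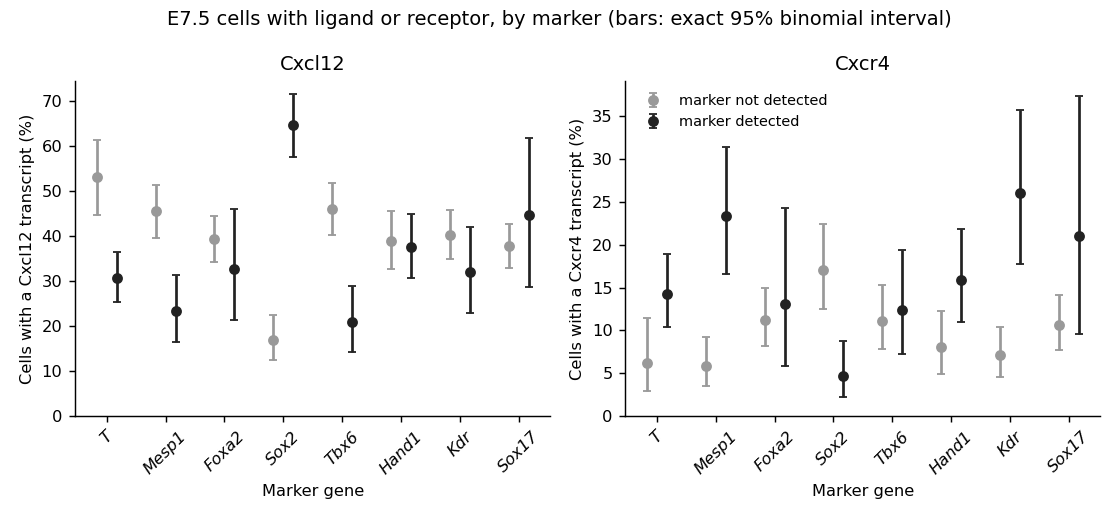
Share of E7.5 cells (percent, vertical axes) with at least 1 Cxcl12 or Cxcr4 transcript, without and with each of 8 marker genes (horizontal axis), with exact 95% binomial intervals over cells. Cxcl12 is highest in Sox2 cells (64.7%), and Cxcr4 in Kdr (26%) and Mesp1 cells (23.4%).

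Few cells held both ligand and receptor. At E7.5, 11 cells held both and 16.6 were expected from each library's shares. The mean log2 ratio of observed to expected was -0.81 ± 0.87 (SD, n = 11), below 0 in 8 of 11 libraries (exact sign-flip permutation p = 0.0195). Adjusted over the 14 pairs and stages tested, p was 0.109, so the call was not kept. At E6.75, 10 cells held both against 14.9 expected (exact sign-flip permutation p = 0.438). Cxcr4 and Mesp1 shared 32 E7.5 cells against 19.2 expected, above 0 in 10 of 11 libraries (exact permutation p = 0.00781, adjusted 0.109). Counted as observed minus expected cells, added after the data were seen, the adjusted p was 0.0273. Cxcl12 was found in 82.9% of E6.75 cells with T and in 52.5% of those without, and the log2 ratio of observed to expected shared cells was above 0 in 6 of 6 libraries, at the smallest p that 6 libraries can give (exact permutation p = 0.0312, adjusted 0.109). The expected counts did not take depth within a library into account.

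Among 425 E7.5 cells, 152 held the ligand alone, 38 the receptor alone, 11 both and 224 neither. Sox2 was in 78.9% of ligand-only and 15.8% of receptor-only cells, Mesp1 in 16.4% and 65.8%, and Kdr in 17.1% and 52.6%. At E6.75, 306 cells held the ligand alone, 12 the receptor alone, 10 both and 186 neither.

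The ligand-only and receptor-only cells of E7.5 were compared over all other genes in the 7 libraries with at least 3 of each, 76 against 33 cells, at median depths of 35259 and 39099. Of 3512 genes, 147 (4.19%) were called, 2.22% higher in ligand-only and 1.96% lower. With no filter the calls rose to 494. Of the lineage list, 13 of 43 genes could be tested, 2 were higher in ligand-only cells and 6 lower, with a median log2 fold change of -0.60 against 0.0034 over all genes. Dnmt3b, a de novo DNA methyltransferase gene high in epiblast, stood at 3076 ± 527 CPM in ligand-only and 498 ± 95.1 in receptor-only cells (SD, n = 7, log2 fold change 2.62 ± 0.11, edgeR adjusted p = 1.28e-11). Utf1, a chromatin factor gene of pluripotent cells, stood at 184 ± 71.5 and 1.93 ± 2.75 CPM (adjusted p = 7.59e-09, edgeR). Pou3f1, an ectoderm transcription factor gene, was higher by 3.79 ± 0.44 and Cdh1, the E-cadherin gene of epithelia, by 2.06 ± 0.32. The other leading genes of ligand-only cells were Pim2, L1td1, Rian, Gng3, Foxo1 and Akap12, with log2 fold changes from 1.81 to 4.26.

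Genes higher in receptor-only cells included the 6 of the lineage list. Pdgfra, a growth factor receptor gene of mesoderm, stood at 198 ± 35.6 CPM against 42.9 ± 42.9 in ligand-only cells (SD, n = 7, log2 fold change -2.55 ± 0.32, edgeR adjusted p = 4.21e-05). Fn1, the fibronectin gene, stood at 1282 ± 211 against 271 ± 169 (adjusted p = 3.23e-05, edgeR). Mesp1 stood at 171 ± 92.3 against 38.3 ± 29.5 (adjusted p = 0.000592, edgeR). Cdh2, the N-cadherin gene, had a log2 fold change of -1.90, Bmp4, a growth factor gene of extraembryonic mesoderm, -2.18, Lefty2, a Nodal inhibitor gene, -2.52 and Hand1 -1.24. Hand1 missed the threshold without replicate 2, 3 or 11 (edgeR adjusted p up to 0.193), and Lefty2 without replicate 3 (adjusted p = 0.0842). The other leading genes were Pcdh19, Rasgrp3, Gm7676, Dusp9, Igf2 and Crabp1, from -2.66 to -2.10. T (0.09, edgeR adjusted p = 0.974), Otx2 (1.11, 0.079), Epcam (1.20, 0.145) and Vim (-0.60, 0.117) did not pass. The visceral endoderm markers summed to 0 to 13.7 CPM in receptor-only and 0 to 6.96 in ligand-only cells. The extraembryonic ectoderm markers were higher in ligand-only cells in 7 of 7 libraries (42.2 to 211 CPM against 6.55 to 88.8), again mostly Wfdc2 (93.4 against 24.11), with Rhox6 and Rhox9 at 0 on both sides and Elf5 at 0.348 and 0. Their part in these differences was not tested.

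**Figure D5:**
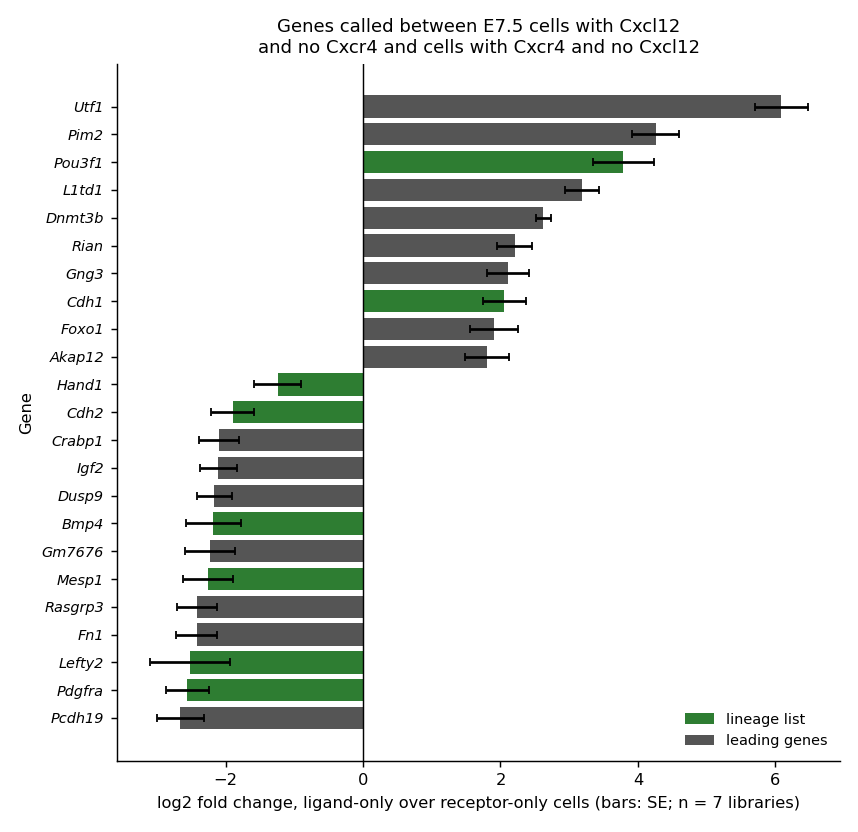
Log2 fold change of ligand-only over receptor-only cells at E7.5 (horizontal axis, bars are SE, n = 7 libraries) for the called genes named in the text (vertical axis). Utf1 and Dnmt3b lie far to the ligand-only side, and Pdgfra, Fn1 and Mesp1 to the receptor-only side.

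The same comparison at E6.75 rested on replicates 2_13 and 2_14, with 11 receptor-only cells at a median depth of 41360 and ligand-only cells at 61607. Of 9741 genes 4.89% were called (1.62% higher in ligand-only cells and 3.26% lower), 476 in all and 235 with DESeq2. Of the lineage list 30 of 43 genes were tested, 3 were higher in ligand-only cells (Sox2, Pou3f1 and Epcam) and 20 lower, with a median of -2.0 against 0.039 over all genes. Kdr (-6.99), Cer1 (-6.44), Hhex (-5.19), Pdgfra (-3.08) and Mesp1 (-1.81) were among those higher in receptor-only cells. The visceral endoderm markers summed to 556 and 858 CPM in receptor-only cells against 41.7 and 24.6 in ligand-only cells, and their part in this result was not tested. With the limit of 0.1% under 2 libraries were left, and the comparison was not run. The leading genes of receptor-only cells were Prss12, Foxq1, Nrp1, Kdr, Cer1, Sfrp5, Srgn, Spink1, Hkdc1 and Pcdh19, and Spink1 stood at 565 ± 54 against 9.28 ± 5.91 CPM (SD, n = 2). Those of ligand-only cells were Rarg, Scd1, Psmb8, 1700019D03Rik, Xist (the RNA of X inactivation, 55.5 ± 15.6 against 3.91 ± 0.388 CPM, SD, n = 2), and Jph4, Bok, Tmem54, Smtnl2 and Syt13, which were at 0 in receptor-only cells.

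Other genes of the pathway came from a list. Of 34 (ligands, receptors, G proteins, kinases, arrestins and effectors), 27 were tested between stages, 6 were higher at E7.5 and 4 lower, where 20% and 18.8% of all genes were called. Mif, a second ligand of CXCR4, went from 582 ± 134 to 1022 ± 142 CPM (SD, log2 fold change 0.76, edgeR adjusted p = 0.0001). Gnai2, a Gi subunit gene, was lower at E7.5 (-0.56). Gnai1, another Gi subunit gene, was higher, by 0.80 to 0.98 with 1 library left out at a time (edgeR adjusted p at most 0.00794). The other genes called higher were Gnaq, Rhoa, Pxn and Prex1, and the others called lower were Gnb1, Arrb2 and Rgs16. The Rhoa call was lost without E6.75 replicate 1_10, 1_11 or 2_12 or E7.5 replicate 12 (edgeR adjusted p up to 0.119). Arrb2 was lost without 1_10 (adjusted p = 0.0503, edgeR), Prex1 without 1_11 (0.0501) and Rgs16 without 2_9 (0.061). At E7.5 Gnai2 was lower with Mesp1 (-0.49), higher with Sox2 (0.35, edgeR adjusted p = 0.0004, 4.51% of genes called higher) and higher in ligand-only than receptor-only cells, 576 ± 119 against 399 ± 91.3 CPM (SD, n = 7, log2 fold change 0.56, adjusted p = 0.0069, edgeR). It was the 1 pathway gene of 14 tested to pass in that comparison, where 4.19% of all genes were called. By Sox2 at E7.5, 2 of 21 passed higher, Gnai2 among them, and 1 lower, where 8.68% of all genes were called. By Foxa2 and by Tbx6 at E7.5, 1 of 21 passed higher, and by Kdr 1 of 21 lower, where 2.37%, 4.08% and 4.29% of genes were called. By Mesp1 at E7.5, 2 of 20 passed, both lower (Mif and Gnai2), where 3.25% of all genes were called lower. The Mif call was lost without replicate 3, 4, 10 or 11 (edgeR adjusted p up to 0.0642). By T at E6.75, where 3.5% of all genes were called, 1 of 27 passed, Prex1, a Rac exchange factor gene (0.69, adjusted p = 0.0414, edgeR), a call lost without replicate 2_9, 2_12, 2_13 or 2_14 (adjusted p up to 0.314). Rgs16, which turns Gi signals off, was higher with Foxa2 at E6.75, 15.7 against 4.53 CPM (1.83, adjusted p = 0.0014, edgeR, 1.15% of genes called higher), on the side with more of the visceral endoderm markers in 6 of 6 libraries, whose part was not tested. Ackr3 gave 15 transcripts in 14 cells at E6.75 and 29 in 21 at E7.5.

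Of 42 chemokine and chemokine receptor rows, 26 ligands and 16 receptors, 18 were found in at least 10 kept cells and 2 in none. Cxcr2, a receptor for other chemokines, was listed in 810 cells, more than Cxcl12. Whether its reads come from an overlapping gene was not tested. The next were Cx3cl1 in 129 cells, Ccl25 in 119, Ccl27a in 104 and Xcr1 in 82.

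Across 39 E7.5 sums by library and class, centred within the 11 libraries, the genes most like Cxcl12 were Uchl1 (Pearson r = 0.87), Elavl3 (0.86), Dnmt3b (0.86), Camsap3 (0.85) and Rasgrp2 (0.85) among 8495 genes. Those most like Cxcr4 were Peg3 (0.73), Plxna2 (0.67), Isl1 (0.63), Myadm (0.63) and Laptm4b (0.63). Cxcl12 and Cxcr4 had r = -0.54 over the same sums. These sums share libraries and depth, and the values are a description.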

How the data were processed

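Single-cell libraries of mouse embryos at 2 stages were analysed from the expected counts that the authors deposited, which the values show to be unique-molecule counts corrected for collisions in a pool of 4096 barcodes. bcl2fastq 2.17.1.14 and BWA 0.6.2-r126 are named in the submitters' processing notes. The genome build, annotation and strand setting are not given in the sources used here. Of 192 barcode columns per library the 96 in use were read, and mitochondrial rows and spike-ins were set aside. Cells with at least 2000 nuclear transcripts were kept. Barcode numbers recur in every library by construction and do not mark shared cells, and no doublet caller was run. Values were summed per library and side (at least 3 cells a side), rounded, and tested with edgeR 4.0.16 (R 4.3.3, quasi-likelihood, TMM, filterByExpr, library as block, Benjamini-Hochberg, threshold 0.05). SE is the log2 fold change divided by the root of F. DESeq2 1.42.0, no filter, other cell limits, thinning to 5000 transcripts and leaving out libraries were alternatives. Shares, Cxcr4 CPM and co-detection used two-sided exact permutation tests in scipy 1.17.1. Replicates agreed less closely than sampling noise allows, with a chi-square per degree of freedom of at least 2.11, so no library was counted as a copy.

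Genes named besides the members were the marker, lineage and pathway lists, the 10 called genes of largest change per direction with at least 20 CPM on the higher side and 1 sign in every library, and the 5 most like each member by Pearson r. The members and lists were chosen with earlier results of these data known. On simulated data for T at E6.75 (9760 genes), 92% of 2-fold and 98% of 4-fold changes were recovered and 0.0732% of unchanged genes were called. Every simulated gene had the same dispersion, and no cells were split by a marker. These rates may therefore not hold for the reported fits.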

Additional observations from a re-analysis of the deposited data

Results flagged for a closer look

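In 5 of 36 groups of library values, 1 library stood apart from the others, and chance flags about 1 in 20 groups. Groups of 3 or of 11 libraries were outside this check. The chance rate assumes normally spread values, which sums of few Cxcr4 transcripts need not be. Cxcr4 in E7.5 cells without Foxa2 was 14.6 CPM in replicate 11, and 0.789 to 7.72 in the others. Cxcl12 in E6.75 cells without Sox2 was 118 CPM in replicate 1_11, and 26.6 to 57.0 in the others. Cxcr4 in E6.75 cells with Sox2 was 3.53 CPM in replicate 2_13, and 0 to 0.745 in the others. Cxcl12 in E7.5 cells without Sox2 was 75 CPM in replicate 12, and 0 to 39.6 in the others. Cxcr4 in E7.5 cells without Hand1 was 54.9 CPM in replicate 9, and 0 to 6.01 in the others.

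The effect of a marker on Cxcl12 differed between the stages in edgeR's interaction test for T (log2 difference -1.89), Mesp1 (-2.06) and Sox2 (1.99), 3 of the 5 such values tested.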

How the results depend on the processing

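No paired analysis was possible because the replicate labels of the 2 stages do not overlap; within a stage each library was its own block. With no low-count filter Cxcl12 passed by T at E7.5 (-0.77), by Tbx6 (-1.42) and for the Foxa2 difference between stages (-0.93), and the ligand-only against receptor-only calls rose from 147 to 494 at E7.5 and from 476 to 726 at E6.75. The E6.75 calls were 235 with DESeq2 and 731 with no cells left out. DESeq2 lost the stage differences of the T (-1.86) and Mesp1 effects (-2.13). Thinning to 5000 transcripts lost the latter (-2.21) and turned Cxcl12 by Mesp1 (0.025) and by Sox2 (-0.24) at E6.75. At E7.5 it moved the co-detection ratio of Cxcl12 with T from -0.33 to -1.18 and with Mesp1 from -0.77 to -1.09. Both then passed (exact sign-flip permutation, adjusted p = 0.0205 each). It turned Cxcl12 with Foxa2 at E6.75 (0.13 to -0.12), Cxcr4 with T at E7.5 (0.26 to -0.13) and Cxcr4 with Foxa2 at E6.75 (0.71 to -0.19). None of these passed (same test, adjusted p = 0.7875 each). Cxcr4 with T at E6.75 turned to -0.20 (pseudocount 0.1), -0.13 (no cells left out) and -0.071 (deep cells left out). Observed minus expected gave 1.16 for Cxcr4 with Mesp1 and 0.066 for Cxcr4 with Foxa2 at E7.5. With no cells left out the Cxcr4 Mesp1 difference was 0.17. At 2 transcripts per positive cell, Cxcl12 passed between Mesp1-only and Foxa2-only cells at E6.75 (-1.15) and its share difference between stages was 0.0763 percentage points. Unthinned share differences were -18.8 (Cxcl12) and 8.87 (Cxcr4). Without E7.5 replicates 1 and 2 the stage value was 0.050. The causes were not tested.

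Leaving out 1 library gave Cxcl12 by T at E7.5 from -1.05 to -0.62 (past 0.05 without replicate 7), by Mesp1 at E6.75 from -0.33 to 0.15, the Mesp1 difference between stages from -2.30 to -1.84 and for Cxcr4 from -0.81 to 0.62, and Mesp1-only against Foxa2-only at E6.75 from -1.46 to 0.075 (turned without 2_13). Cxcr4 CPM between stages ran from 3.34 to 5.93. Co-detection ran from -0.095 to 0.13 (Cxcr4 with T, E6.75), 0.53 to 0.73 (with Mesp1, E7.5) and -0.16 to 0.0032 (with Foxa2, E7.5). The ligand-only against receptor-only calls at E7.5 ran from 104 to 187. Genes called over the whole table ran from 152 (without 2_14) to 360 by T at E6.75 (342, or 3.5%, with all libraries; 1.57% with DESeq2), and from 61 (without 2_13 or 2_14) to 386 (without 2_9) by Mesp1 at E6.75 (1.23% with all; 0.488% with DESeq2). The ligand-only against receptor-only comparison was not run, for under 2 libraries, at 2 transcripts per positive cell at either stage. At E6.75 it was also not run with a visceral endoderm limit of 0.1% or without 2_13 or 2_14. Sox17 at E7.5 was not run after thinning, for the same reason. Cxcr4's few transcripts limit every statement on it.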
